A study of Mus musculus with 17 samples.

Results

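The interferon-gamma-inducible GTPases are proteins of host defence that cells make in large amounts after interferon-gamma reaches them. They were followed here as a family of 10 mouse genes chosen by name: the guanylate-binding proteins Gbp1, Gbp2, Gbp3, Gbp4, Gbp5 and Gbp6, and the immunity-related GTPases Irgm1, Irgm2, Igtp and Tgtp1. Of these, 9 had a row of their own name among the 30843 loci of the deposited FPKM table, and all 9 passed the minimum described below. No row was named Tgtp1. The table has 2 rows named Tgtp2, a symbol that RefSeq also lists as an older name of Tgtp1, and they are described apart. Gbp1 is the symbol of the deposited table for the gene that RefSeq now calls Gbp2b.

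The RNA was that of the whole mammary gland, taken from female C57Bl/6 mice that had not borne young. The mice were of 4 genotypes, and the labels give no age and no treatment. Wild-type mice (WT) carried none of the engineered changes. AROM mice were tet-op-CYP19A1MMTV-rtTA, in which the MMTV promoter drives the activator of a tetracycline-controlled gene for aromatase, the enzyme that makes estrogens. CERM mice were tet-op-Esr1MMTV-rtTA, with the same control of the estrogen receptor alpha gene. BRCA mice were Brca1fl11/fl11/MMTV-Cre/p53+/-: Cre under the MMTV promoter removes exon 11 of Brca1, and 1 allele of p53 is lost. MMTV is active mainly in mammary epithelium, so the engineered change is not expected in every cell of the gland. The labels list 17 libraries: 2 single-end ones of each genotype and, paired-end, 1 for WT, 2 for BRCA and 3 each for AROM and CERM. The table has 1 column for each genotype and read layout, 8 in all, so there was no spread between animals, no test could be run, and none of the differences given here could be checked against replicates. Libraries were sequenced by both methods per the labels' protocols, so the layouts may share RNA, and a value found in both is not a repeat in other animals.

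Depth is unknown because the table holds no counts. Over the 11734 genes analysed the median lay between 7.68 and 9.89 FPKM in the 8 columns. FPKM scales the fragments of a gene by the length of its transcript and by all fragments mapped. It is a level per length, so levels of different genes can be set side by side. In both WT columns about 60% of the values above 0 (61.0% single-end, 60.1% paired-end) end in the repeating decimals of a mean of 3 values, which no other column shows, while the labels give fewer WT libraries in each layout. What was averaged was not settled, and each comparison with WT carries this limit. Of the engineered genes, Esr1 was at 8.49 and 8.41 FPKM in CERM, against 7.27 and 6.89 in WT and 8.41 and 7.87 in AROM (single-end, then paired-end), so its level does not set CERM apart from AROM. Mouse Cyp19a1 had 0.0591 and 0.0502 FPKM in AROM, with 0 listed for every other genotype. Brca1 was at 3.28 and 3.29 FPKM in BRCA against 1.13 and 0.851 in WT, a value over the whole gene that does not check the loss of 1 exon, and Trp53 was at 12.3 and 12.1 FPKM in BRCA against 41.1 and 34.5 in WT. The genotype names are therefore used as the labels give them.

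Interferon-gamma, made mainly by T cells and NK cells, binds the receptor chains Ifngr1 and Ifngr2 and acts through the kinases Jak1 and Jak2. The signal reaches gamma-activated sites in DNA, and Irf1, itself induced by interferon-gamma, binds interferon-stimulated response elements. Among the products, Irgm1, Irgm2 and Igtp (also called Irgm3) are regulators that sit on the cell's own membranes and hold the effector GTPases, such as Tgtp and Iigp1, inactive. Effectors and guanylate-binding proteins assemble on vacuoles that hold microbes, open them and help to start inflammasome signalling. Macrophages, epithelial cells and many other cells of a gland can make these proteins. In RNA of a whole gland, more cells that express a gene and more RNA per cell cannot be told apart.

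The family was highest in the CERM and BRCA glands, and its members divided between them. The regulators Irgm2 and Igtp stood highest in CERM, at 6.10 and 4.55 times WT in the single-end columns and 5.53 and 3.84 times in the paired-end columns. Gbp1 stood highest in BRCA, at 16.6 and 21.3 times WT, and so did Gbp3, at 2.78 and 3.67 times. All 9 members were above WT in CERM in both layouts, whereas AROM lay near WT for each of them. On the log2 scale described below, the median difference of all genes in CERM from WT was -0.05 (single-end) and 0.04 (paired-end). CERM held the highest value of the 4 genotypes for 7 of 9 members in the single-end columns and for 6 in the paired-end columns. BRCA held the highest value for the others, 2 and 3 members. WT and AROM were highest for 0 members in either layout. How many of all genes were highest in each genotype was not counted, so these counts have no background share beside them.

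The plot of levels by genotype shows these values for each member.

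**Figure D1:**
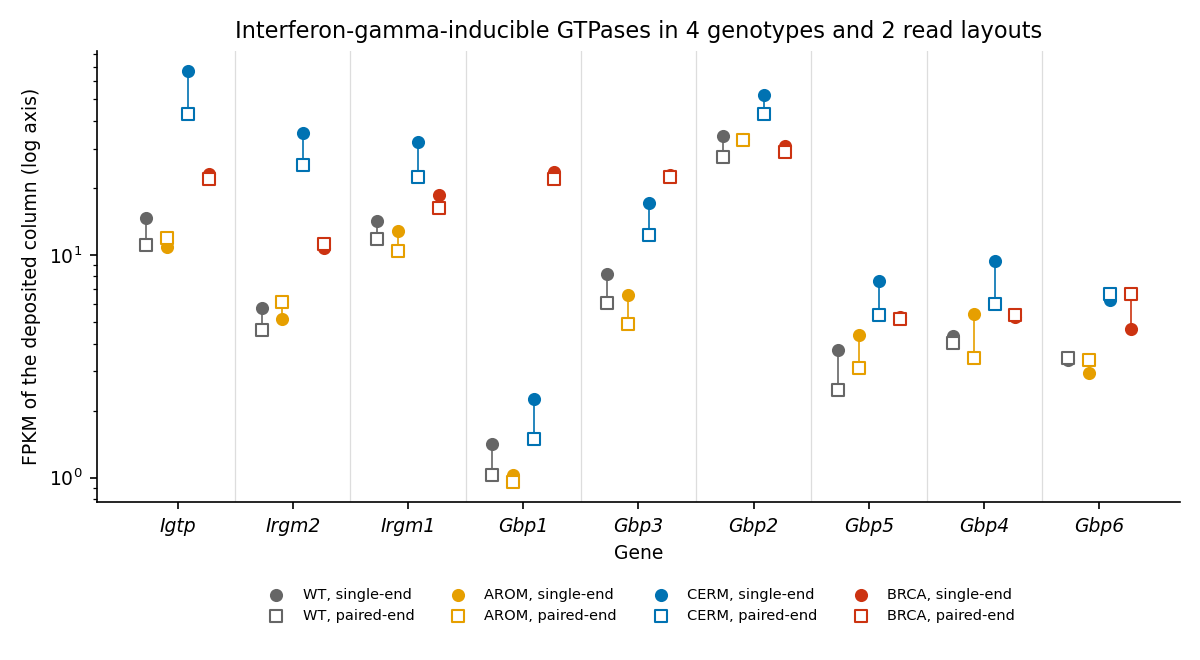
Level of 9 interferon-gamma-inducible GTPases (x axis) in FPKM on a log axis (y axis), 1 point for each deposited column; circles are single-end columns, open squares paired-end columns, colours the 4 genotypes, and a line joins both layouts of 1 genotype with no error bar, since no replicate values exist. Igtp, Irgm2 and Irgm1 are highest in CERM, Gbp1 and Gbp3 highest in BRCA, and AROM lies near WT throughout.

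The start regions of the members the results turn on are shown because the genes share a motif there although their levels differ between genotypes. The sequences are RefSeq's (build GRCm38.p6, a later build than the mm9 used for the table), each a stretch of 60 bases from the promoter entry of the gene, which runs from 250 before to 50 after the annotated start. They are written 5′ to 3′ on the strand of the gene, and the capitals mark matches to the response element core GAAANNGAAA or to the gamma-activated site TTCNNNGAA, on either strand; in the Gbp genes the core is read from the opposite strand. The windows are at chr11:58199492-58199551 for Igtp (plus strand), chr11:58214883-58214942 for Irgm2 (plus), chr11:48871421-48871480 for Irgm1 (minus), chr3:142594680-142594739 for Gbp1 (plus), chr3:142559969-142560028 for Gbp3 (plus) and chr3:142620574-142620633 for Gbp2 (plus).
Igtp: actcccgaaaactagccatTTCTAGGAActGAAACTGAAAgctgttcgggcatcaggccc
Irgm2: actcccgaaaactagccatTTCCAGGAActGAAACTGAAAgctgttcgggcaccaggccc
Irgm1: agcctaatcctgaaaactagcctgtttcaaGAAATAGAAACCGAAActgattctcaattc
Gbp1: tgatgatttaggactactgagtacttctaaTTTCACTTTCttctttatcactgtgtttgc
Gbp3: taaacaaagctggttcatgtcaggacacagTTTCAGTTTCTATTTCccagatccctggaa
Gbp2: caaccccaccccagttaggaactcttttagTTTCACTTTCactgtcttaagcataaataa
Irgm2 and Igtp carry the gamma-activated site and the response element core side by side, 2 bases apart, and so does Tgtp1. In Irgm1 and Gbp3 the capitals hold 2 overlapping matches of the core.

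Promoter entries were matched for 8 of the 10 members (not Gbp4 or Gbp6). All 8 held the response element core in at least 1 entry, that is 8 of 9 promoters, since Gbp3 has 2 entries and 1 of them has no match. Among all 32851 promoters of the table, 3.44% held it. The gamma-activated site was in the promoters of 4 members, Gbp5, Irgm2, Igtp and Tgtp1, and in 8.30% of all promoters. The first core began 34 bases before the start in Igtp, 64 in Irgm2, 30 in Irgm1, 137 in Gbp1, 45 in Gbp3, 59 in Gbp2, 165 in Gbp5 and 77 in Tgtp1. A match is a run of letters and not a measured binding site, and no binding was measured here.

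Irgm2, one of the regulators, was at 35.3 FPKM in CERM, 10.8 in BRCA, 5.79 in WT and 5.14 in AROM in the single-end columns. The paired-end columns gave 25.4 in CERM, 11.2 in BRCA, 6.16 in AROM and 4.59 in WT. CERM was far above the other genotypes in both layouts, BRCA came next, and WT and AROM exchanged places between the layouts. On the scale of log2(FPKM + 1), which is used for all differences and understates those of genes with low values, Irgm2 was 2.42 above WT in CERM (paired-end 2.24) and 0.79 above WT in BRCA (paired-end 1.12). Among the 11734 genes ranked by this difference from the highest, Irgm2 took place 50 in the single-end columns of CERM and place 78 in the paired-end columns.

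Igtp, its neighbour on chromosome 11 and also a regulator, reached the highest single value of any member, in the single-end CERM column. It was at 66.7 FPKM in CERM, 23.0 in BRCA, 14.6 in WT and 10.9 in AROM in the single-end columns. Paired-end, it was at 42.7 in CERM, 21.9 in BRCA, 11.9 in AROM and 11.1 in WT. The order of genotypes was that of Irgm2, again with WT and AROM close to each other. The log2 difference of CERM from WT was 2.11 and 1.85, and that of BRCA from WT 0.62 and 0.92. Part of the Igtp transcript cannot be told from Irgm2 by short reads: 12.3% of its stretches of 50 bases occur in Irgm2 too.

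Irgm1, the regulator best known for its part in autophagy and in resistance to mycobacteria, followed with smaller distances. Its level in the single-end columns was 32.2 FPKM in CERM, 18.5 in BRCA, 14.1 in WT and 12.7 in AROM, and in the paired-end columns 22.3, 16.3, 11.8 and 10.4 in the same order. CERM was 1.13 above WT on the log2 scale in the single-end columns, past the 2-fold mark, and 0.87 above it in the paired-end columns, short of it. BRCA was 0.36 and 0.43 above WT. No 50-base stretch of Irgm1 was shared with another GTPase gene.

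The effector Tgtp is represented by the 2 rows named Tgtp2. The first was at 3.16 FPKM in CERM, 1.43 in BRCA, 0.641 in WT and 0.618 in AROM in the single-end columns, and at 3.35, 2.09, 0.801 and 0.578 in the paired-end columns. The second was at 3.16, 1.04, 0.936 and 0.872, and at 3.49, 1.69, 1.18 and 0.954 in the paired-end columns. Both rows were highest in CERM and next highest in BRCA, and they were about as low in AROM as in WT. Of the 50-base stretches of Tgtp1, 89.4% occur in Tgtp2, so reads of these genes can be assigned to either, and which row holds which gene was not settled. The CERM difference from WT was 1.34 and 1.27 for the first row and 1.10 and 1.04 for the second.

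Gbp1 had the largest distance between genotypes of any member. Its level was 23.4 FPKM in BRCA in the single-end columns, against 2.24 in CERM, 1.42 in WT and 1.02 in AROM. In the paired-end columns it was at 21.9 in BRCA, 1.49 in CERM, 1.03 in WT and 0.960 in AROM. BRCA alone was high, and the other genotypes lay within a narrow low range. On the log2 scale BRCA was 3.34 above WT (paired-end 3.50), 3.59 above AROM (3.54) and 2.91 above CERM (3.20). These differences placed Gbp1 at 28 and 25 from the top of all genes against WT, and at 29 and 15 against CERM.

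Gbp3, which lies between Gbp7 and Gbp1 on chromosome 3, was also highest in BRCA but high in CERM as well. Its single-end levels were 22.9 FPKM in BRCA, 17.1 in CERM, 8.22 in WT and 6.58 in AROM. Its paired-end levels were 22.4 in BRCA, 12.3 in CERM, 6.10 in WT and 4.89 in AROM. BRCA was 1.37 and 1.72 above WT on the log2 scale, past 2-fold in both layouts, and CERM 0.97 and 0.90 above it. As a plain ratio of FPKM, CERM was at 2.08 and 2.01 times WT for Gbp3.

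Gbp2, the next gene along from Gbp1, was among the most highly expressed members and differed least between BRCA and WT. Its single-end levels were 52.1 FPKM for CERM, then 34.1 for WT, 33.0 for AROM and 30.8 for BRCA. The paired-end values were 42.7 in CERM, 32.8 in AROM, 28.8 in BRCA and 27.4 in WT. CERM was highest in both layouts, at 0.60 and 0.62 above WT on the log2 scale, and BRCA lay at -0.15 and 0.07. Gbp1 and Gbp2 share 1.84% of the 50-base stretches of Gbp1, and both hold the same letters of the core in the windows printed above.

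Gbp5, a promoter of inflammasome assembly, was at 7.67 FPKM in CERM, 5.25 in BRCA, 4.35 in AROM and 3.75 in WT in the single-end columns. It was at 5.35, 5.14, 3.11 and 2.46 in the paired-end columns, in the same order. CERM was highest in both layouts, with BRCA almost level with it in the paired-end columns. The distance of CERM from WT was 0.87 and 0.88 on the log2 scale, and that of BRCA 0.40 and 0.83.

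Gbp4 and Gbp6 belong to the second Gbp cluster, on chromosome 5. Gbp4 was at 9.38 FPKM in CERM, 5.41 in AROM, 5.25 in BRCA and 4.34 in WT in the single-end columns. The paired-end levels were 6.01 in CERM, 5.39 in BRCA, 4.03 in WT and 3.44 in AROM. CERM lay 0.96 above WT on the log2 scale single-end and 0.48 above it paired-end, the widest gap between layouts of any member in this comparison. Gbp6 was at 6.29 FPKM in CERM, 4.67 in BRCA, 3.36 in WT and 2.94 in AROM, and paired-end at 6.65, 6.67, 3.46 and 3.36 in the same order of genotypes. CERM and BRCA could not be separated for Gbp6 in the paired-end columns, with a difference of 0.00. Of the 50-base stretches of Gbp6, 70.3% occur in other GTPase genes and 62.3% in Gbp10, so its values are uncertain. The share was 12.8% for Gbp4, 4.79% for Gbp3 and 0 for Gbp5.

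Counted at 2-fold, CERM was higher than WT in 3 of 9 members in the single-end columns (Irgm1, Irgm2 and Igtp) and in 2 in the paired-end columns (Irgm2 and Igtp), and lower in 0. Over all genes analysed, 3.55% were at least 2-fold higher and 1.04% lower in the single-end columns, and 3.65% and 0.844% in the paired-end columns. The members' median difference was 0.96 and 0.87, where the median of all genes was -0.05 and 0.04. The count depends on the value added before taking logs. With 0.1 FPKM in place of 1, 6 members were past 2-fold in the single-end columns, beside 4.62% of all genes. Gbp3, Gbp4 and Gbp5 were the 3 members gained.

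BRCA was at least 2-fold higher than WT in 2 of 9 members single-end (Gbp1 and Gbp3) and in 3 paired-end (also Irgm2, which quantile normalisation brought under the mark, to 0.97), and lower in 0. Over all genes, 3.38% were higher and 1.99% lower in the single-end columns, and 4.68% and 1.3% in the paired-end columns. The median of the members was 0.40 and 0.83, and that of all genes 0.04 and 0.10. These comparisons and the former share the WT columns, so a low WT value would raise both.

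AROM and WT differed by less than 2-fold in all 9 members in both layouts, with 0 higher and 0 lower. The background shares were 2.51% higher and 1.76% lower in the single-end columns, and 2.1% and 2.83% in the paired-end columns. The member differences ran from -0.40 (Igtp) to 0.26 (Gbp4) single-end and from -0.27 (Gbp3) to 0.36 (Irgm2) paired-end. Medians were -0.15 and -0.03. The sign was the same in both layouts for 5 of 9 members.

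Against AROM, which does not involve the WT columns, CERM was at least 2-fold higher in 4 of 9 members in both layouts (Irgm1, Irgm2, Igtp and Gbp3) and lower in 0. Paired-end, quantile normalisation left 2 of the 4, with Irgm1 at 0.90 and Gbp3 at 0.94. The shares over all genes were 1.67% higher and 0.92% lower in the single-end columns, and 3.99% and 2.35% in the paired-end columns. Irgm2 was at 6.87 and 4.12 times AROM, and Igtp at 6.14 and 3.59 times. BRCA was higher than AROM in 3 members single-end (Gbp1, Gbp3 and Igtp) and in 2 paired-end (Gbp1 and Gbp3), and lower in 0, where 5.11% of all genes were higher and 3.25% lower single-end, and 10.3% and 4.55% paired-end. Igtp was just past the mark, at 1.02, in the single-end columns (0.99 with median ratio scaling) and at 0.83 in the paired-end columns. The whole distribution of genes lay higher than in AROM in the paired-end columns, with a median over all genes of 0.17 for CERM and 0.21 for BRCA. The medians of the members there were 0.81 and 0.76. The paired-end AROM column also had a sum over all loci of 1.2e+08 FPKM, against 4.3e+06 to 6.2e+06 in the other paired-end columns.

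BRCA and CERM divided the family. BRCA was at least 2-fold higher in 1 of 9 members, Gbp1, in both layouts. It was lower in 2 members in the single-end columns (Irgm2 and Igtp) and in 1 in the paired-end columns (Irgm2). The shares of all genes were 2.77% higher and 3.02% lower single-end, and 2.61% and 2.32% paired-end. Irgm2 in BRCA was at 0.31 and 0.44 of its level in CERM, and Igtp at 0.34 and 0.51.

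**Figure D2:**
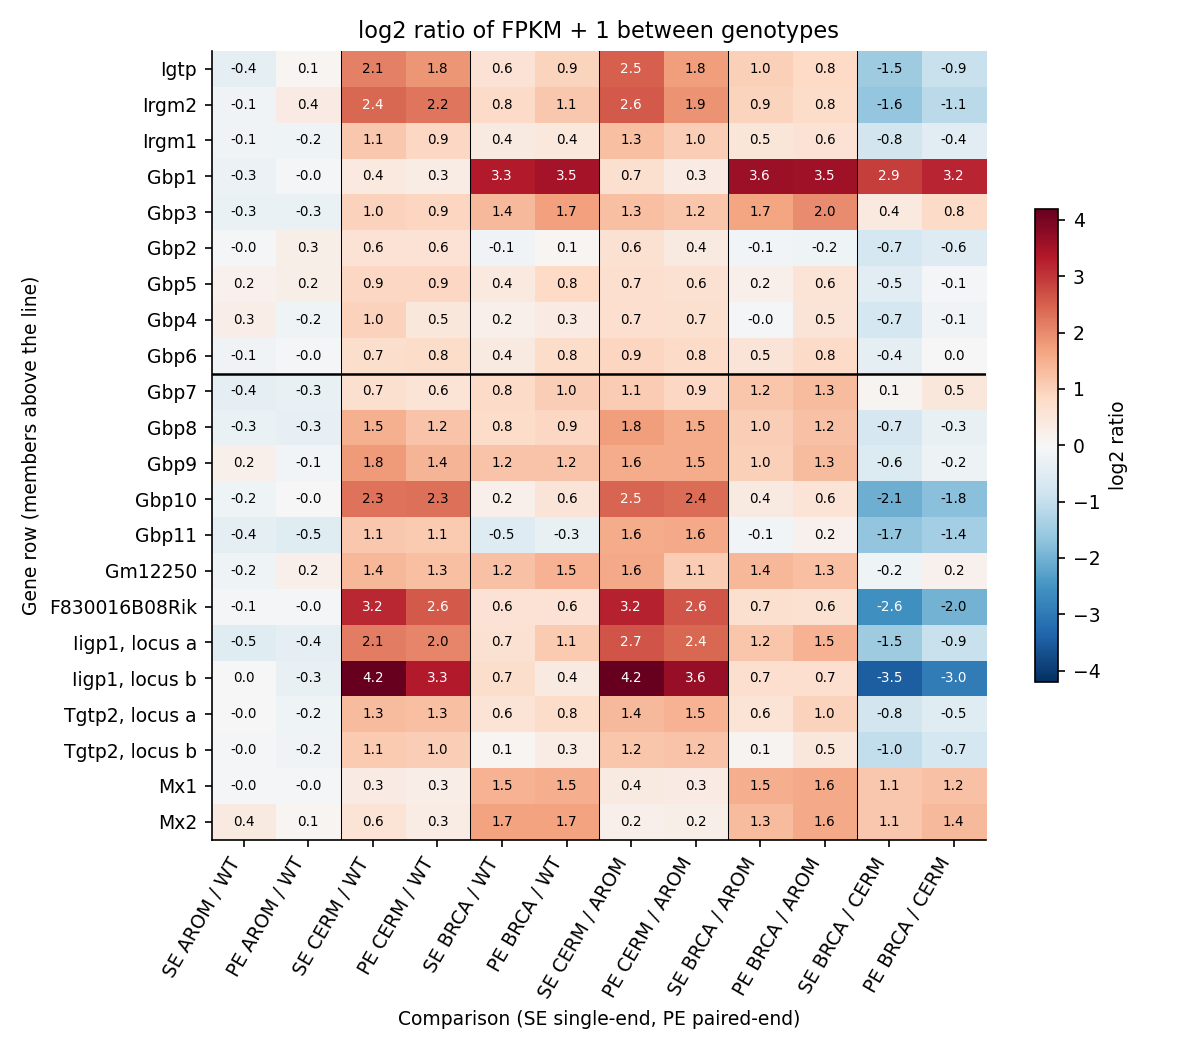
Difference in log2(FPKM + 1) between genotypes (columns, single-end and paired-end side by side) for 9 members above the line and other interferon-inducible GTPases below it (rows); red is higher in the first genotype named, blue lower, and rows of a symbol found on 2 loci are marked a and b. Gbp1 is red in each comparison of BRCA with another genotype (2.9 to 3.6), while Irgm2 and Igtp are red in CERM and blue in BRCA against CERM.

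The layouts gave the same sign for 9 of 9 members in CERM against WT and for 8 of 9 in BRCA against WT, with Gbp2 as the exception. Past 2-fold in both layouts were 2 members in each, Irgm2 and Igtp in CERM and Gbp1 and Gbp3 in BRCA. Over all genes, 108 of the 417 genes past 2-fold higher in CERM in the single-end columns were past it in the paired-end columns, 25.9% of the first list and 25.2% of the 428 genes in the second. For BRCA it was 325 genes, 81.9% of 397 and 59.2% of 549. The members' FPKM values were lower in paired-end than single-end columns in CERM, with a median ratio of 0.698 (from 0.640 to 1.06), where the median over all genes was 0.943. In BRCA the median ratio was 0.978, in AROM 0.938 and in WT 0.792.

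**Figure D3:**
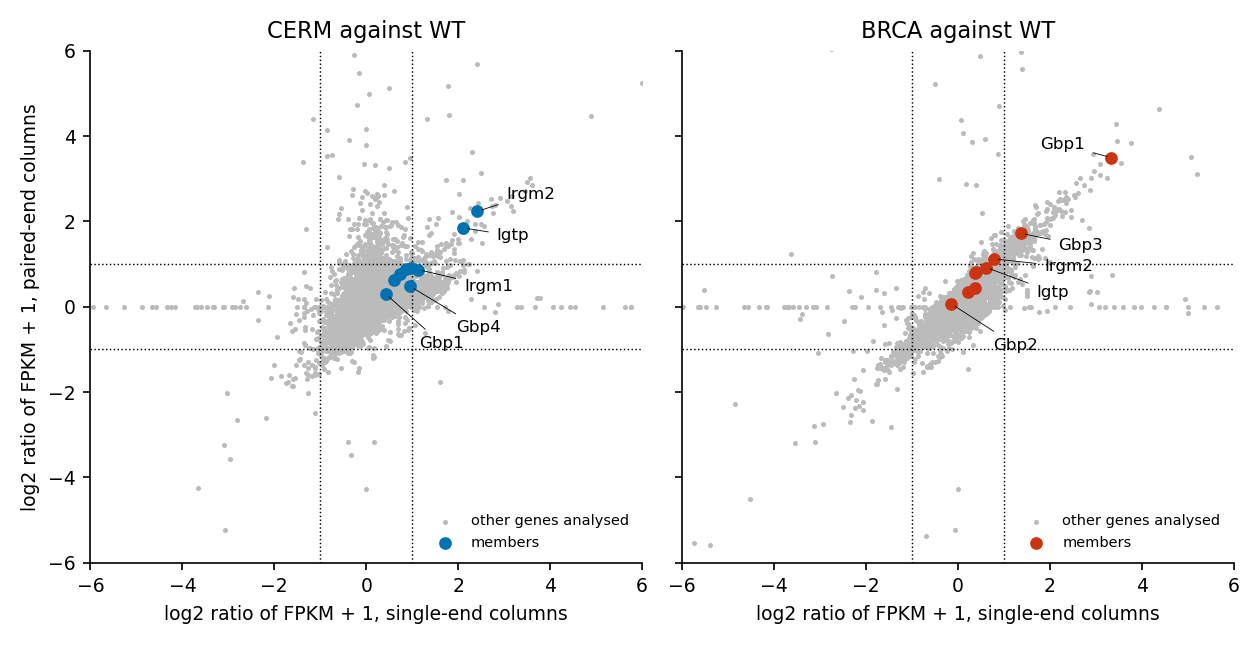
Difference from WT in log2(FPKM + 1) in the single-end columns (x axis) and the paired-end columns (y axis), CERM on the left and BRCA on the right; grey points are the other genes analysed, coloured points the 9 members, dotted lines mark 2-fold, and 28 genes on the left and 19 on the right lie outside the axes. Irgm2 and Igtp are past 2-fold in both layouts in CERM, and Gbp1 and Gbp3 in BRCA.

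Other GTPases came from a list of 25 symbols, of which 12 were analysed, Mx1, Mx2, Irgq, Atl1 and Atl2 among them. In CERM 6 of 12 were past 2-fold higher than WT in each layout, beside 3.55% and 3.65% of all genes, and 0 lower. In BRCA 4 were higher single-end and 5 paired-end, with Mx1 and Mx2 in both, beside 3.38% and 4.68%. AROM had 0, beside 2.51% and 2.1%. F830016B08Rik and Gbp10 were under 1 FPKM in every column but those of CERM, and Mx1 in every column but those of BRCA. These genes passed the minimum through those columns alone, so their place in the counts is built in. On chromosome 5, Gbp10 was at 5.52 and 5.63 FPKM in CERM (single-end, then paired-end), against 0.354 and 0.321 in WT and 0.558 and 0.944 in BRCA. Gbp10 shares 73.9% of its 50-base stretches with other genes, most of them with Gbp6. Its neighbour Gbp11 was at 4.87 and 4.02 FPKM in CERM and, in BRCA, at 0.856 and 0.874, below the 1.68 and 1.34 of WT. Gbp8 stood at 3.90 and 2.90 FPKM in CERM, 1.98 and 2.11 in BRCA and 0.740 and 0.684 in WT, and Gbp9 at 12.3 and 8.88, 7.97 and 7.55, and 2.89 and 2.70. Gbp7, next to Gbp3 on chromosome 3, showed no such lead of CERM, with 11.4 and 8.26 FPKM in CERM and 12.4 and 11.9 in BRCA, against 6.76 and 5.26 in WT.

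Effectors of the immunity-related family were above WT in CERM as well. Iigp1, the best studied effector, has 2 rows: one at 13.5 and 9.56 FPKM in WT, 63.1 and 42.4 in CERM and 21.8 and 21.6 in BRCA, the other at 1.27 and 1.74, 40.3 and 26.7, and 2.75 and 2.58. F830016B08Rik, another GTPase gene of the family, was at 10.1 and 6.69 FPKM in CERM and below 1 in each other column (0.178 to 0.924). Gm12250 (Irgb10), an effector that acts on bacterial membranes, was nearly level in CERM (5.09 and 3.53 FPKM) and BRCA (4.38 and 4.18), above WT (1.31 and 0.868). The antiviral GTPases Mx1 and Mx2, which respond to type I interferon, were highest in BRCA instead, Mx1 at 3.08 and 2.77 FPKM against 0.864 and 0.588 in CERM and 0.467 and 0.298 in WT, and Mx2 at 4.21 and 3.999 against 1.40 and 0.931 in CERM and 0.608 and 0.553 in WT. Irgq, Atl1 and Atl2, relatives not known as interferon targets, differed from WT by at most 0.63 on the log2 scale in these columns. Of the 3 rows named Gm4951, the first was at 3.43 and 3.83 FPKM in CERM, 2.20 and 2.73 in BRCA and 1.48 and 1.00 in WT. The other Gm4951 rows and those of Irgc1 and Gvin1 were near 0 or listed at 0 in at least 1 column and are given no ratio. Atl3 has 2 rows, one at 14.8 and 24.1 FPKM in CERM and 17.1 and 21.5 in WT, the other near 0 in the paired-end columns.

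The genes that carry the interferon-gamma signal were next compared. Ifng itself was at or below 0.258 FPKM in all 8 columns, from 0.0929 in AROM to 0.252 in CERM and 0.258 in BRCA in the single-end columns, under the minimum for analysis. The receptor chains were at similar levels in all genotypes: Ifngr1 between 49.1 and 71.2 FPKM and Ifngr2 between 30.4 and 38.3. Jak1 was at 46.2 and 44.6 FPKM in BRCA against 29.1 and 25.8 in WT, and Jak2 at 17.0 and 16.5 against 11.8 and 10.1, both short of 2-fold.

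In BRCA the feedback inhibitor Socs3 was at 13.6 and 13.4 FPKM against 3.93 and 3.77 in WT, and the myeloid and B cell factor Irf8 at 12.7 and 12.8 against 5.75 and 4.56. Irf1 was at 36.3 and 28.8 FPKM in CERM, 27.0 and 27.2 in BRCA and 29.7 and 23.7 in WT, and Socs1, the main inhibitor of this receptor, stayed between 1.35 and 2.22 FPKM. The cytokine Il18, which induces interferon-gamma, was lowest in WT, at 2.74 and 1.89 FPKM, against 3.45 and 3.66 in AROM, 3.61 and 4.0 in CERM and 4.97 and 4.18 in BRCA. Its receptor chain Il18r1 was at 6.21 and 5.72 in BRCA, 1.21 and 2.04 in CERM and 2.87 and 2.57 in WT. The median of the 11 signalling genes analysed was 0.20 and 0.27 in CERM and 0.65 and 0.77 in BRCA.

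Among 26 interferon-gamma targets that are not GTPases, 0 were past 2-fold higher in CERM in the single-end columns and 6 in the paired-end columns, and in BRCA 6 and 9. Over all genes the shares were 3.55% and 3.65% in CERM and 3.38% and 4.68% in BRCA. A count of 0 of 26 does not stand apart from a share of 3.55%. The list's median was 0.12 and 0.47 in CERM and 0.20 and 0.44 in BRCA. The genes named from this and the other lists were picked by the size of their single-end BRCA to WT ratio, so a high BRCA value among them is built in. Of the class II antigen presentation genes, H2-Eb1 was at 222 and 231 FPKM against 47.4 and 71.0 in CERM and 50.6 and 50.7 in WT. For H2-Ab1 the values were 299 and 322 in BRCA, 200 and 200 in CERM and 101 and 81.7 in WT. H2-Aa, a class II gene outside that choice and named after its values were seen, was highest in CERM, at 291 and 345 FPKM against 262 and 339 in BRCA and 184 and 119 in WT. So was Psmb9, a subunit of the immunoproteasome, at 70.9 and 53.6 in CERM, 43.6 and 43.7 in BRCA and 54.6 and 45.5 in WT. The chemokine Cxcl10 was at 7.10 and 6.03 FPKM in BRCA, with CERM (2.01 and 1.59) and WT (2.10 and 1.77) alike low. The tryptophan-degrading enzyme Ido1 was at 3.28 and 3.16 FPKM in BRCA, 1.61 and 0.797 in AROM, 0.208 and 0.583 in CERM and 0.0740 and 0.0975 in WT. Cybb, a subunit of the phagocyte oxidase, was at 7.19 single-end and 16.5 paired-end in CERM, against 16.6 and 16.5 in BRCA and 6.71 and 4.81 in WT. The Fc receptor Fcgr1 was at 1.80 and 2.33 FPKM in CERM, 5.17 and 5.81 in BRCA and 1.25 and 0.637 in WT.

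Genes best known as targets of type I interferon were compared in the same way. Of 20 analysed, 8 were at least 2-fold higher in CERM in each layout, and 14 and 16 in BRCA, with medians of 0.68 and 0.68 in CERM and 1.68 and 1.89 in BRCA. In AROM 2 were higher in each layout, Xaf1 and Ifi27l2a. The shares of all genes were 3.55% and 3.65% in CERM, 3.38% and 4.68% in BRCA and 2.51% and 2.1% in AROM. Ifi44 was at 17.8 and 16.8 FPKM in BRCA, 6.16 and 3.91 in CERM and 1.79 and 1.44 in WT. The transcription factor Irf7 was at 40.3 and 38.0 FPKM in BRCA, 26.4 and 17.3 in CERM and 7.21 and 5.78 in WT. Ifit1, which binds viral RNA, was at 13.1 and 12.6 in BRCA, 7.83 and 5.18 in CERM and 1.45 and 1.22 in WT. The oligoadenylate synthetase genes were alike in order, Oasl2 at 25.4 and 23.7 FPKM in BRCA, 13.2 and 9.15 in CERM and 4.42 and 3.38 in WT, and Oas2 at 7.83 and 7.35, 3.71 and 2.44, and 0.900 and 0.459. In Xaf1 AROM was above CERM, with 32.3 and 27.9 FPKM in BRCA, 11.7 and 7.20 in AROM, 4.69 and 4.08 in CERM and 2.89 and 2.39 in WT. Ifi27l2a, named after its values were seen, was highest in AROM, at 2555 and 2839 FPKM, against 609 and 632 in WT, 777 and 1008 in CERM and 678 and 631 in BRCA.

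Proteins that work with the GTPases at vacuoles, among them autophagy factors, ubiquitin ligases and inflammasome components, were compared last. Of 18 analysed, 0 were past 2-fold in either direction in AROM, CERM or BRCA against WT, in either layout, a count to be read beside the 0.844% to 4.68% of all genes past it in those comparisons. Against AROM in the paired-end columns, 1 of 18 was at least 2-fold higher in CERM and 4 in BRCA, beside 3.99% and 10.3% of all genes. The medians of the 18 in those comparisons were 0.35 and 0.20. In the comparisons with WT their medians lay between -0.07 and 0.18. The DNA sensor Aim2 was at 2.95 and 2.84 FPKM in BRCA against 1.36 and 1.33 in WT, 2.18 and 2.14 times as a plain ratio, and Casp4 (caspase-11), the sensor of bacterial lipopolysaccharide, at 8.97 and 7.55 against 6.43 and 3.87. The pore-forming Gsdmd was at 5.10 and 5.52 FPKM in BRCA, 4.85 and 5.91 in CERM and 4.57 and 3.70 in WT. Tnfaip3 was at 6.02 and 5.65 FPKM in BRCA and 4.56 and 3.99 in WT, Trim21 at 8.39 and 8.49 and 10.2 and 9.71, and Gabarapl2 at 72.5 and 62.8 and 81.0 and 68.2.

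**Figure D4:**
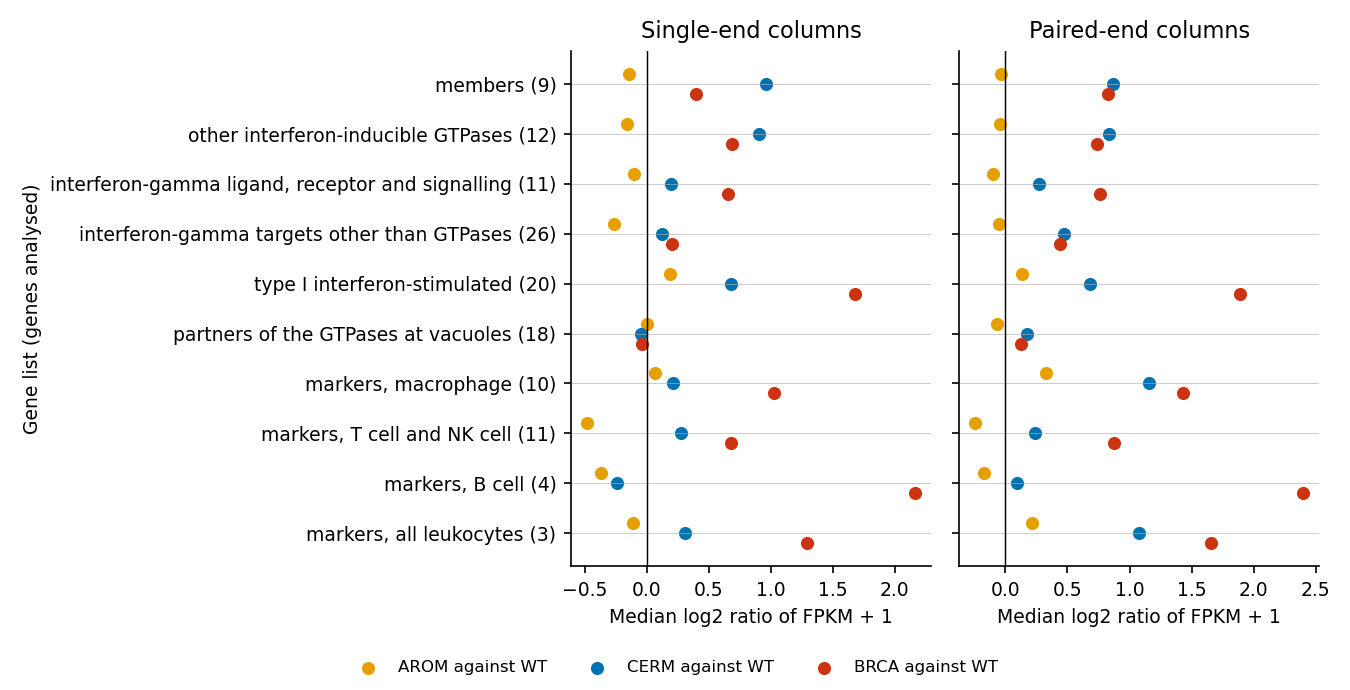
Median difference from WT in log2(FPKM + 1) (x axis) of each gene list (y axis, number of genes analysed in brackets) for AROM, CERM and BRCA, single-end columns on the left and paired-end on the right; points are medians over genes, with no error bar. The members have medians of 0.96 and 0.87 in CERM and 0.40 and 0.83 in BRCA, whereas type I interferon targets and B cell markers are highest in BRCA. The list of other interferon-inducible GTPases also holds Irgq, Atl1 and Atl2, relatives not known as interferon targets.

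Markers of the cells a gland can hold differed between the same columns. Their counts against WT are to be read beside the shares of all genes past 2-fold. Higher were 3.55% and 3.65% in CERM and 3.38% and 4.68% in BRCA (single-end, then paired-end). Lower were 1.04% and 0.844% in CERM. Of 10 macrophage markers, 0 were at least 2-fold higher in CERM in the single-end columns and 7 in the paired-end columns, with medians of 0.21 and 1.15. Their summed level was 766 and 1416 FPKM against 879 and 703 in WT. Lyz2 made up much of each sum, at 411 and 919 FPKM in CERM and 556 and 457 in WT. In the single-end columns 9 of the 10 markers were above WT in CERM, and Lyz2 was the 1 below it. The members' median in CERM was 0.96 single-end, above that of the macrophage markers, and 0.87 paired-end, below it. In BRCA 5 and 7 macrophage markers were higher, with sums of 1079 and 1044 FPKM. All 4 B cell markers were higher in BRCA in both layouts (sums of 42.0 and 40.1 FPKM against 6.2 and 4.2 in WT) and 0 of 4 in CERM (4.7 and 5.1). Of the B cell markers, Ms4a1 and Cd22 were under 1 FPKM in every column but those of BRCA. They passed the minimum through BRCA alone, so their place in its count is built in. Of 11 markers of T cells and NK cells, 1 was higher in CERM in each layout and 1 lower, and 2 and 3 were higher in BRCA; the sums were 53.6 and 39.1 FPKM in CERM, 63.0 and 61.5 in BRCA, 37.2 and 29.3 in WT and 21.99 and 20.8 in AROM. The 3 markers of all leukocytes were all higher in BRCA in both layouts, and 0 and 2 of them in CERM.

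Markers of the gland's other tissues differed as well. For their counts, the shares of all genes in CERM and BRCA against WT are those given above. In AROM 2.51% and 2.1% were higher than WT and 1.76% and 2.83% lower (single-end, then paired-end). Higher than AROM were 1.67% and 3.99% in CERM and 5.11% and 10.3% in BRCA. The 5 epithelial markers summed to 749 and 598 FPKM in WT, 520 and 499 in CERM, 734 and 725 in BRCA and 370 and 216 in AROM. All 5 were detected in every column. In AROM 2 of them were at least 2-fold lower than in WT single-end and 5 paired-end (medians -0.99 and -1.54), and in CERM and BRCA 0 of 5 were past 2-fold against WT. Against AROM, where members were also higher, epithelial markers were at least 2-fold higher in 1 (single-end) and 5 (paired-end) of 5 in CERM (medians 0.42 and 1.14). In BRCA they were so in 3 and 5 of 5 (medians 1.22 and 2.0). All 5 skeletal muscle markers were at least 2-fold higher than WT in AROM and in CERM in the single-end columns, and 0 and 1 of them in the paired-end columns. Adipocyte markers were past 2-fold higher in 5 of 5 in paired-end AROM and 1 of 5 in paired-end CERM, and endothelial markers in 0 of 5 in every comparison with WT. No marker of these lists was listed at 0 in any column. The part of these cells in the differences of the GTPases was not tested.

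The members' values were also compared with each other as patterns across the 8 columns, with log2(FPKM + 1) centred within each layout. Igtp and Irgm2 had a Pearson r of 0.994, Igtp and Irgm1 0.991, and Irgm1 and Irgm2 0.980. Gbp1 and Gbp3 gave 0.856, while Gbp1 and Gbp2, which are neighbours on chromosome 3, gave -0.33, the lowest of all pairs. With the members' mean pattern, r was 0.987 for Gbp6, 0.940 for Gbp5, 0.921 for Gbp3, 0.908 for Irgm1, 0.897 for Igtp, 0.890 for Irgm2, 0.826 for Gbp4, 0.611 for Gbp1 and 0.522 for Gbp2. Each member is itself part of that mean, which raises its r by construction. These 8 columns are 4 genotypes seen in 2 layouts that may share libraries, so each r describes little more than 4 points and carries no p.

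Among the genes other than the members whose pattern was most like the members' mean over the 8 columns, by the same r, were Tob2 (0.994), Gm12250 (0.993), Lrrc8a (0.989), Dio2 (0.987), Tnfrsf14 (0.986), Fosl2 (0.986), Gbp9 (0.982), Csrnp1 (0.982) and Tcfcp2l1 (0.980). Tob2, a regulator of cell growth, was at 35.2 and 28.4 FPKM in CERM, 29.4 and 30.2 in BRCA, 16.1 and 16.7 in WT and 16.2 and 16.3 in AROM. Dio2, which activates thyroid hormone, was at 4.91 and 3.16 in CERM, 4.14 and 3.95 in BRCA, 1.55 and 1.40 in WT and 1.21 and 1.17 in AROM. Of these genes, Gm12250 and Gbp9 are known interferon targets and are GTPases of the same families as the members. They were found by a search of 11734 genes over these few columns.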

How the data were processed

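Polyadenylated RNA of mouse mammary glands was made into TruSeq libraries and sequenced on a HiSeq instrument, per the labels' protocols. The submitters' processing notes name TopHat, which aligns spliced reads, Cufflinks, which estimates FPKM, the read tools FastQC and Trim Galore, and build mm9. Their versions, the strand handling and the way libraries were combined remain not given in the sources used here. The authors deposited 1 table of FPKM values per locus with 8 pooled columns, used as deposited. The sum over all loci was 1.2e+08 in the paired-end AROM column, against 4.3e+06 in WT, 4.3e+06 in CERM and 6.2e+06 in BRCA. The genes analysed held 0.41% of that AROM sum, against 10.2% in WT, 10.7% in CERM and 6.7% in BRCA. Column sums were not used for scaling.

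Analysed were the 11734 genes with a mean of at least 1 FPKM over the 8 columns, out of 20420 loci (30843 in all) that carry 1 symbol found on no other locus. Differences are log2 ratios of FPKM + 1 within a layout, and a gene was counted at 2-fold or more. The limma fits planned for a table with a column per library could not be run. Promoters were RefSeq's, and shared 50-base stretches were counted over the longest GENCODE M21 transcript of each gene. The members, the gene lists and the rule for named genes (up to 6 per list by the BRCA to WT ratio single-end, a fixed set of signalling genes, and the 10 genes most like the members) were chosen with earlier results of these data known. Analyses used Python 3.11.15, numpy 2.4.6 and pandas 2.3.3. Alternatives were pseudocounts of 0.1 and 0.5 FPKM, other scalings, a 1.5-fold mark, filters and summed rows. Results on 1 gene are not reported here.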

Additional observations from a re-analysis of the deposited data

How the results depend on the processing

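No paired analysis was possible because the table holds 1 pooled column per genotype and layout; for the same reason no replicate block and no leaving out of replicates was run. No member's difference past 2-fold turned its direction under any alternative that was run. With a 1.5-fold mark, members counted as higher than WT were 8 (single-end) and 7 (paired-end) in CERM and 4 and 6 in BRCA. Over all genes the shares were 7.30% and 9.45% in CERM and 9.71% and 12.8% in BRCA. Against AROM, 9 and 7 members were higher in CERM, beside 4.51% and 14.2%, and 6 in paired-end BRCA, beside 26.8%. Against CERM, 2 were higher in paired-end BRCA, beside 8.97%, and 5 and 2 were lower in BRCA, beside 7.23% and 7.30%. In the single-end columns, CERM against WT moved from 3 members to 6 with 0.1 FPKM added, to 5 with 0.5 FPKM added and to 5 with median ratio scaling. Quantile normalisation moved CERM against AROM in the paired-end columns from 4 members to 2 (without Irgm1 and Gbp3). Counting both Tgtp2 rows as members, a choice made after seeing the data, gave 5 and 4 in CERM against WT. The other counts of members stayed within 1.5 times, and summing rows of a symbol moved none.

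Counts over all genes moved by more than 1.5 times in 24 of 24 cases with the 1.5-fold mark, 13 with 0.1 FPKM, 11 with a mean of at least 5 FPKM, 3 with median ratio scaling and 1 with quantile normalisation. Scaling moved the share of higher among called genes in the paired-end columns: from 42.6% to 57.5% in AROM against WT with median ratios; from 78.2% to 68.0% (median ratios) or 64.3% (quantiles) in BRCA against WT; from 62.9% to 42.8% or 52.0% in CERM against AROM; and from 69.4% to 44.8% or 51.8% in BRCA against AROM. Depth is unknown, so no counting error can be given, and values under 1 FPKM are the least certain.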
